A study of Mus musculus with 9 samples.

Results

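Podocytes sorted from the glomeruli of normal FVB mice are described here across 18193 genes. The 4 arrays labelled as podocytes of normal FVB mice 1 to 4 were taken, of 9 arrays in the series. The other 5, from OVE26 mice, enter no main result and only served to choose probe sets in an alternative processing. The labels give these 4 mice as wild type in genotype, of the FVB strain, aged 3 to 4 months and normal in disease state. The study's design text speaks of mice with an eGFP transgene in podocytes, made on the FVB background and crossed to the OVE26 diabetic line. The labels do not say whether the normal mice carried eGFP, its promoter is not given in the sources used, and the sex of the mice is not in the labels. The protocols describe perfusion of the kidney with magnetic beads, a collagenase digest, magnetic capture of the bead-loaded glomeruli and their dissociation in trypsin, followed by flow sorting of the GFP-fluorescent cells. RNA was isolated with a PicoPure kit, amplified and labelled with biotin for the array with NuGEN reagents.

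The podocyte is the epithelial cell that wraps the glomerular capillary with interdigitating foot processes. The processes are joined by the slit diaphragm, a porous junction built of nephrin and its partners, they are held open by a negatively charged coat of podocalyxin, and they are braced by actin bundles that synaptopodin binds. They sit on a basement membrane of type IV collagen and laminin to which integrins anchor them. The same capillary tuft holds endothelial and mesangial cells, and tubule segments lie around it, so markers of these cells were followed beside the podocyte genes.

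Each gene was read from its brightest probe set, on a log2 scale of intensity, and then ranked among the 18193 genes of its array as a percentile from 0 to 100. Probe sets differ in how well they bind, so the ranks order signal and not the number of transcripts. A gene was counted as above background where its signal passed, in each of the 4 arrays, the 95th percentile of 133 genes of odorant, vomeronasal and taste receptors, keratin-associated proteins and beta-defensins, families that mostly belong to other organs. That level lay at 4.69, 4.89, 4.67 and 5.02 on the log2 scale in FVB 1, FVB 2, FVB 3 and FVB 4. Of all genes, 10446 (57.4%) were above background, and 1572 (8.64%) had a percentile of at least 90 in every array; these are called high-ranked below. There is 1 group, so no groups were tested against each other, and the number of arrays limits the precision of every SD (n = 4).

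The 4 arrays had like distributions, with medians over all probe sets of 5.08 to 5.15. Across 45101 probe sets, which are not independent points, Pearson's r was 0.980 to 0.984 in the pairs with FVB 2 and 0.988 to 0.989 in the other pairs. FVB 2 stood apart from the others. It had high Xist, which is transcribed from the inactive X chromosome, and low Y-linked genes, and it also carried the most signal of several other kidney cells. Several results that rest on FVB 2 are therefore also given without it. All the arrays are labelled as separate mice, but spread between sorts and amplifications cannot be told apart from spread between mice.

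The label of a podocyte fraction could be set against 4 defining genes. Podxl, which encodes podocalyxin, read 13.10, 13.08, 13.13 and 13.11 in FVB 1 to FVB 4 and was number 5 of all genes by mean signal. Synpo, the actin-binding synaptopodin, read 13.02, 13.04, 13.06 and 13.01. Nphs1, which encodes nephrin, the backbone of the slit diaphragm, read 12.01, 11.72, 12.17 and 11.70. The first pair were almost level over the arrays (SD 0.02 for each), while Nphs1 was higher in FVB 1 and FVB 3 than in FVB 2 and FVB 4 (SD 0.23). Wt1, the transcription factor of podocyte identity, read 10.907, 10.792, 10.996 and 10.927 (SD 0.08). Their mean percentiles were 99.98 for Podxl, 99.97 for Synpo, 99.3 for Nphs1 and 97.0 for Wt1. All of the defining genes were thus high-ranked. A second Synpo probe set was much dimmer, with a mean of 8.18.

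**Figure D1:**
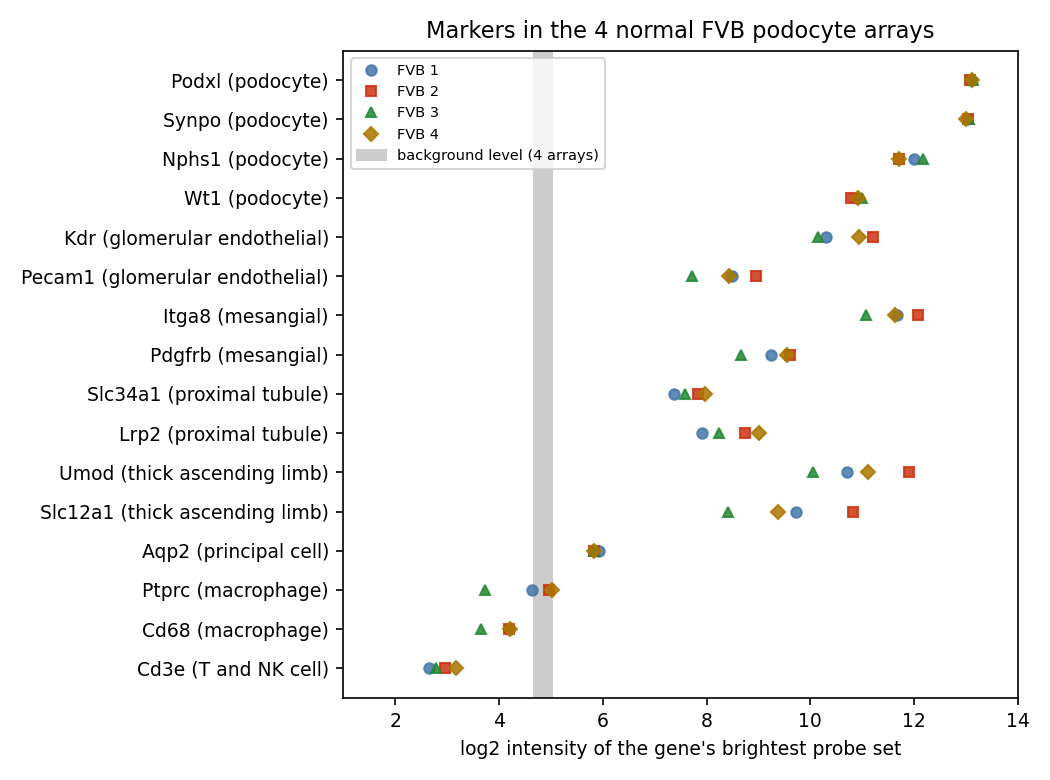
The plot shows log2 intensity (horizontal axis) in each of the 4 arrays (symbols) for the podocyte-defining genes and for defining genes of other cells; the grey band spans the background levels, 4.67 to 5.02. Podxl and Synpo sat above 13 in every array, Umod ran from 10.06 in FVB 3 to 11.90 in FVB 2, and Ptprc, Cd68 and Cd3e lay at or below the band.

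Among the 25 brightest named genes, 6 were on the podocyte list. Besides Podxl and Synpo these were Sema3g, a secreted semaphorin (12.83 ± 0.07, SD, n = 4), Sdc4, the syndecan-4 proteoglycan (12.69 ± 0.06), Ccn2, the matricellular connective tissue growth factor (12.65 ± 0.02), and Vim, the intermediate filament vimentin (12.59 ± 0.03). The actin system gave a further group. Tmsb10 and Tmsb4x, thymosins that hold actin monomers, averaged 12.91 and 12.85, Tpm1, a tropomyosin of actin filaments, averaged 12.84, and Actb, cytoplasmic beta-actin, 12.57. Mitochondria were represented by Vdac1, the outer membrane channel (13.12), Ndufb7, a complex I subunit (12.60), and Atp5a1, a subunit of ATP synthase (12.59).

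The remaining genes of the brightest 25 were of general function. Hnrnpab, an RNA-binding protein, headed the order at 13.30, ahead of Malat1, a nuclear noncoding RNA (13.28), and Nupr1, a stress-responsive nuclear protein (13.26). Pebp1, an inhibitor of Raf kinase, Hmgn1, a nucleosome-binding protein, and Ywhae, a 14-3-3 protein, followed. Lower in the same group were Marveld1, a membrane protein, Atp6ap2, the prorenin receptor, Igfbp7, a secreted binding protein, Tsc22d1, a transcriptional regulator, and Pttg1ip. Myom2, known as a protein of the muscle M-band, was also present at 12.93. Its reading came from a probe set of a type that can match several transcripts. For 6 of the 25 genes, Myom2, Vdac1, Tpm1, Hmgn1, Marveld1 and Tsc22d1, another probe set averaged below the background level of every array, so the probe sets of these genes disagree and their places depend on which one is used. All 25 genes had narrow ranges between arrays, from 0.03 for Hnrnpab to 0.25 for Tmsb10. Of the brightest 100 named genes 17 were on the podocyte list, and of the brightest 500, 36. The first marker of any other kidney cell type was Itga8, the mesangial integrin alpha 8 chain, at place 194.

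**Figure D2:**
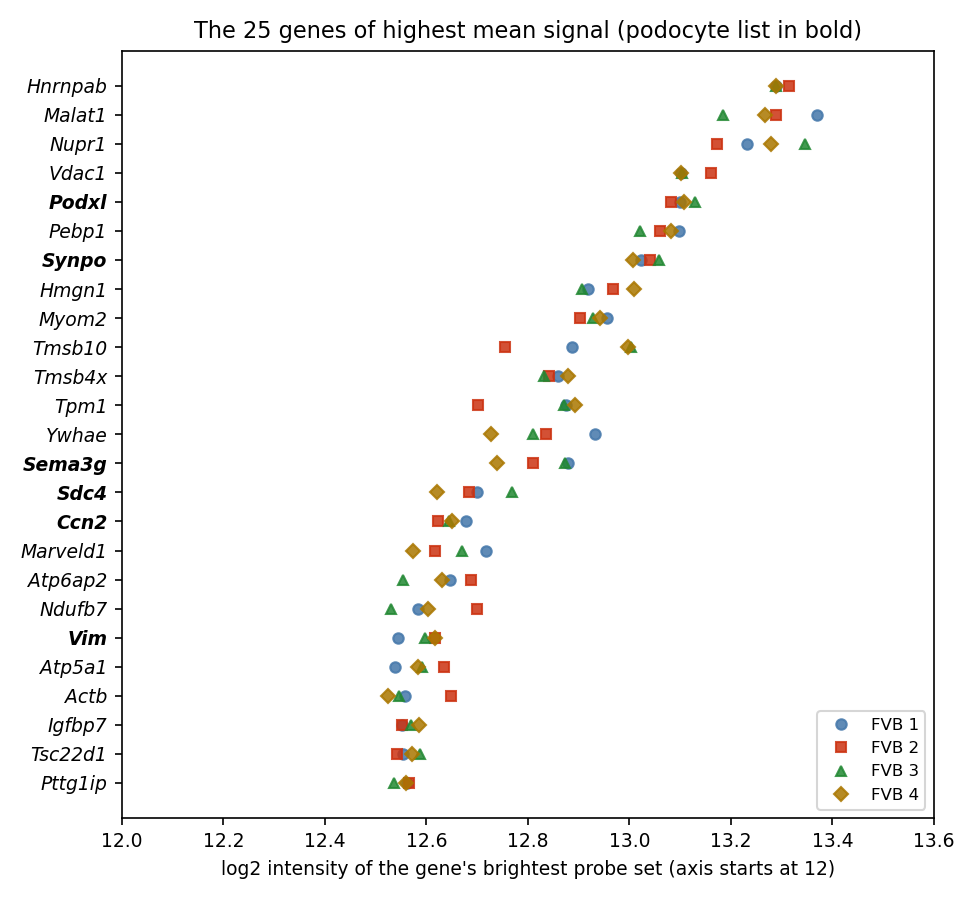
The 25 genes of highest mean signal are listed from top to bottom with their log2 intensity in each array (symbols); the axis starts at 12, and genes of the podocyte list are in bold. Readings of a gene differ by 0.03 to 0.25 between the highest and the lowest array.

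Of 90 genes listed as podocyte genes, 86 could be read, and 4 were not analysed here. Among the 86, 81 were above background, against 57.4% of all genes, and 62 were high-ranked, against 8.64%. The median percentile of the list was 96.0 ± 0.53 (SD over 4 arrays), with array values from 95.4 in FVB 2 to 96.6 in FVB 3, and it was 96.2 without FVB 2. A mean percentile of at least 99 was reached by 20 of the genes. The 10 below a mean percentile of 80 were Pard3, Robo2, Hspg2, Magi1, Ptgds, Trpc6, Uchl1, Kirrel3, Angpt1 and Anln. The list was drawn up from genes known in podocytes, so its high ranks describe the sorted cells and do not test them.

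The slit diaphragm and its partners gave 15 measured genes, of which 13 were above background and 9 high-ranked, with a median percentile of 95.2 ± 0.63. Ddn, or dendrin, a cytoplasmic partner of nephrin, read 12.46, 12.32, 12.40 and 12.34. Cd2ap, the adaptor that ties nephrin to actin, read 12.13, 12.17, 12.01 and 12.05. Tjp1, the junction scaffold ZO-1, averaged 11.94 ± 0.07. Their mean percentiles were 99.4 to 99.8, and they differed little between arrays. Ptpro, the receptor phosphatase of the podocyte surface (11.60 ± 0.09), Fat1, a giant protocadherin (11.41 ± 0.13), and Iqgap1, a scaffold of actin signalling (11.21 ± 0.08), came next. Plce1, a phospholipase C mutated in nephrotic syndrome (10.42 ± 0.15), and Nck2, a nephrin-binding adaptor (10.34 ± 0.22), were also high-ranked, whereas the paralogous adaptor Nck1 averaged 8.77 ± 0.12. Kirrel, which encodes the nephrin-binding Neph1, lay at a percentile of 89.9, just outside the high ranks. Its relative Kirrel3 averaged 4.15 and passed the background level in 1 array.

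The 3 remaining genes of the slit diaphragm group were lower. Pard3, a polarity scaffold, stood at a percentile of 76.0 and Magi1, a junctional scaffold, at 54.2. Trpc6, the calcium-conducting channel mutated in familial focal segmental glomerulosclerosis, read 5.80, 4.74, 5.40 and 4.66. Trpc6 was thus above the background level in FVB 1 and FVB 3 (2 of the 4 arrays) and below it in the others, so its reading is close to the floor of this measurement. A reading at the floor gives only a bound on the signal and does not show that the transcript was missing.

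Surface and adhesion genes were above background in 12 of 12 cases and high-ranked in 10, with a median percentile of 97.4 ± 0.38. Below Podxl and Sdc4 stood Dag1, or dystroglycan, which links the cell to laminin (11.85, 11.46, 11.92 and 11.51). Slc9a3r2, the scaffold NHERF2 that couples podocalyxin to ezrin, averaged 11.43 ± 0.06 and Pdpn, or podoplanin, 11.36 ± 0.09. Itgb1 and Itga3, the chains of the alpha 3 beta 1 integrin that holds the podocyte to its basement membrane, averaged 11.19 ± 0.15 and 10.32 ± 0.31. Of these genes, Dag1 and Itga3 had the wider spread, and both were lower in FVB 2 and FVB 4 than in FVB 1 and FVB 3. Thsd7a, an antigen of membranous nephropathy, averaged 10.89 ± 0.15, Cldn5, a tight junction claudin shared with endothelium, 10.51 ± 0.22, and Ezr, or ezrin, 9.91 ± 0.17. Efnb1, an ephrin of the slit diaphragm, stood at a percentile of 84.8 and Robo2, the Slit receptor, at 67.2.

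The actin cytoskeleton genes numbered 16, with 15 above background, 13 high-ranked and a median percentile of 95.8 ± 0.60. Behind Synpo, Myh9, the nonmuscle myosin heavy chain, read 12.51, 12.55, 12.56 and 12.51. Kank2, an adaptor of focal adhesions, averaged 12.37 ± 0.06, Cdc42, a small GTPase of process formation, 12.33 ± 0.11, and Clic5, which works with ezrin and podocalyxin, 12.22 ± 0.04. Arhgap24, a Rac-inactivating protein, averaged 11.94 ± 0.08. These were all above a percentile of 99 and nearly level between mice. Inf2, a formin (11.05 ± 0.11), and Nebl, an actin-binding nebulette (10.93 ± 0.16), followed. Several genes of the integrin-to-actin link lay between percentiles of 91.1 and 93.9, namely Tln1 (talin), Ilk (integrin-linked kinase), Vcl (vinculin), Actn4 (alpha-actinin-4), Myo1e (a class I myosin) and Rhpn1 (rhophilin). Pdlim2 stood at 80.7. Anln, or anillin, which serves cell division, averaged 2.61 and was below the background level in all of the arrays.

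Transcription factors were above background in 10 of 10 cases and high-ranked in 7, at a median percentile of 95.9 ± 0.36. Tead1, the DNA-binding partner of YAP, averaged 11.32 ± 0.06. Foxd1, a forkhead factor of the stromal and podocyte lineage, averaged 11.09 ± 0.11, Foxc2, another forkhead factor, 10.67 ± 0.18, and Foxc1 9.17 ± 0.10. The YAP side of that pathway was represented by Yap1 at 10.71 ± 0.02 and by its relative Wwtr1 at 8.99 ± 0.14. Dach1, a repressor found in podocytes, averaged 10.51 ± 0.09, and Tcf21, a helix-loop-helix factor of podocyte development, 10.37 ± 0.15. Lmx1b, the factor mutated in nail-patella syndrome, read 9.55, 9.24, 9.94 and 9.53, and was highest in FVB 3. None of the transcription factors had its highest reading in FVB 2, beside 24.4% of all genes above background. For 8 of 10 the lowest reading was there, beside 35.8%.

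Basement membrane genes were above background in 10 of 10 cases and high-ranked in 5, with a median percentile of 93.4 ± 0.66. The mature collagen network of the glomerulus is made of the alpha 3, alpha 4 and alpha 5 chains of type IV collagen. Col4a3 read 11.89, 11.50, 11.82 and 11.63, Col4a4 averaged 11.05 ± 0.13 and Col4a5 averaged 9.56 ± 0.13. Npnt, or nephronectin, an integrin ligand, was at 12.42 ± 0.09, and Agrn, the heparan sulfate proteoglycan agrin, at 10.35 ± 0.17. The 3 chains of the adult glomerular laminin averaged 10.54 ± 0.19 for Lama5, 9.62 ± 0.30 for Lamb2 and 9.44 ± 0.25 for Lamc1. Nid1, or nidogen-1, read 9.32, 9.97, 9.03 and 9.48, and Hspg2, or perlecan, read 6.97, 7.49, 6.83 and 7.24. Nid1 and Hspg2 were both highest in FVB 2 and lowest in FVB 3, and Nid1 had the widest range of any podocyte gene above background (0.94). Both are also made by other cells of the glomerulus, and in bulk samples fewer cells of a type and less RNA per cell cannot be told apart.

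Secreted factors gave 9 measured genes, 8 of them above background and 7 high-ranked, with a median percentile of 98.4 ± 0.32. Sema3g and Ccn2 led them. Htra1, a secreted serine protease, averaged 12.19 ± 0.13, Crim1, a membrane-bound regulator of growth factor release, 11.92 ± 0.13, and Gas1, a membrane-anchored growth arrest protein, 11.40 ± 0.12. Vegfa, the factor that maintains the glomerular endothelium, read 10.28, 10.10, 10.19 and 10.20, and was thus steady over the mice (SD 0.07). Sulf1, a sulfatase that trims heparan sulfate, was more uneven at 10.42, 9.92, 10.67 and 10.39. Bmp7 stood at a percentile of 89.1. Angpt1, the angiopoietin that podocytes supply to endothelial Tek, averaged 3.73 and was below the background level in every array.

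The other podocyte genes numbered 14, with 13 above background, 11 high-ranked and a median percentile of 96.3 ± 0.66. Cdkn1c, the cell cycle inhibitor p57 of mature podocytes, read 12.56, 12.06, 12.60 and 12.17, again higher in FVB 1 and FVB 3. Ctsl, the protease cathepsin L, averaged 11.55 ± 0.17, Enpep, aminopeptidase A, 11.38 ± 0.05, and Nes, the intermediate filament nestin, 11.37 ± 0.12. Golim4, a Golgi membrane protein, averaged 11.21 ± 0.17, Tdrd5, better known from germ cells, 10.71 ± 0.31, and Mapt, the microtubule-associated tau, 10.64 ± 0.18. Clic3, Aif1l, Mme and Rasl11a had percentiles from 92.4 to 95.9. Ptgds, a prostaglandin D synthase, stood at 47.2, and Uchl1, a ubiquitin hydrolase of injured podocytes, averaged 5.12 and passed the background level in 3 of the arrays.

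The promoters of Nphs1, the gene of nephrin in the slit diaphragm, and Sema3g, a secreted semaphorin, are shown as examples of podocyte genes with high signal. RefSeq promoter windows (build GRCm38.p6) hold 250 bases before and 50 after a gene's start, and entries were found for 68 of the 86 podocyte genes and for 14368 of all 18193 genes. Capitals mark the letters TATAAA or GGGCGG, searched on both strands, so that GGGCGG also appears as CCGCCC, and the marked stretches do not overlap. The window of Nphs1 is chr7:30459808-30460107 on the plus strand and that of Sema3g is chr14:31217623-31217922 on the plus strand.
Nphs1: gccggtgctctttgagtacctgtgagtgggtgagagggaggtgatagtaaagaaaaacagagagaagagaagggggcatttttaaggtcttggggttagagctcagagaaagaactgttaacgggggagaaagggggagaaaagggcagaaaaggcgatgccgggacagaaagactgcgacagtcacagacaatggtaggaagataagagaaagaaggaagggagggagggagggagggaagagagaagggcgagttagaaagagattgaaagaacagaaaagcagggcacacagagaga
Sema3g: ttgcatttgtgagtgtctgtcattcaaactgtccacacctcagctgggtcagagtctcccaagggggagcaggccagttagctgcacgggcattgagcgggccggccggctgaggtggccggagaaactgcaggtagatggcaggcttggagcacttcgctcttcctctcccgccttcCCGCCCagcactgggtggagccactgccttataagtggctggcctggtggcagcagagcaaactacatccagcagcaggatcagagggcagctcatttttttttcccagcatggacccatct
The Nphs1 window held 6 CG dinucleotides and neither motif, and the Sema3g window held 8 CG dinucleotides and 1 match to GGGCGG. Both lie under the lower quartile of the podocyte list in CG dinucleotides (10.75), so they do not stand for its middle. Over the podocyte list the median was 19 CG dinucleotides a window, against 17 over all genes and 24 over high-ranked genes. TATAAA occurred in 5.88% of the podocyte windows (4 genes), 7.41% of high-ranked and 9.86% of all windows. GGGCGG occurred in 66.2% of the podocyte windows, 71.0% of high-ranked and 54.1% of all windows. A match is a description of letters and is not shown to be a working site.

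Markers of other kidney cells formed 10 lists with 126 measured genes. Of these, 93 were above background, which is 73.8% beside 57.4% of all genes, and 9 were high-ranked, which is 7.14% beside 8.64%. Their median percentile was 63.6 ± 4.58, and 61.6 without FVB 2. In all, 4 of the 126 reached the median of the podocyte list, and 11 reached its lower quartile (a percentile of 90.7). The 4 were Itga8 of the mesangium, Acsm2 of the proximal tubule, Umod of the thick ascending limb and Cd24a, listed for parietal epithelium but shared by many epithelia. The part that other cells in the sort had in these readings was not tested.

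**Figure D3:**
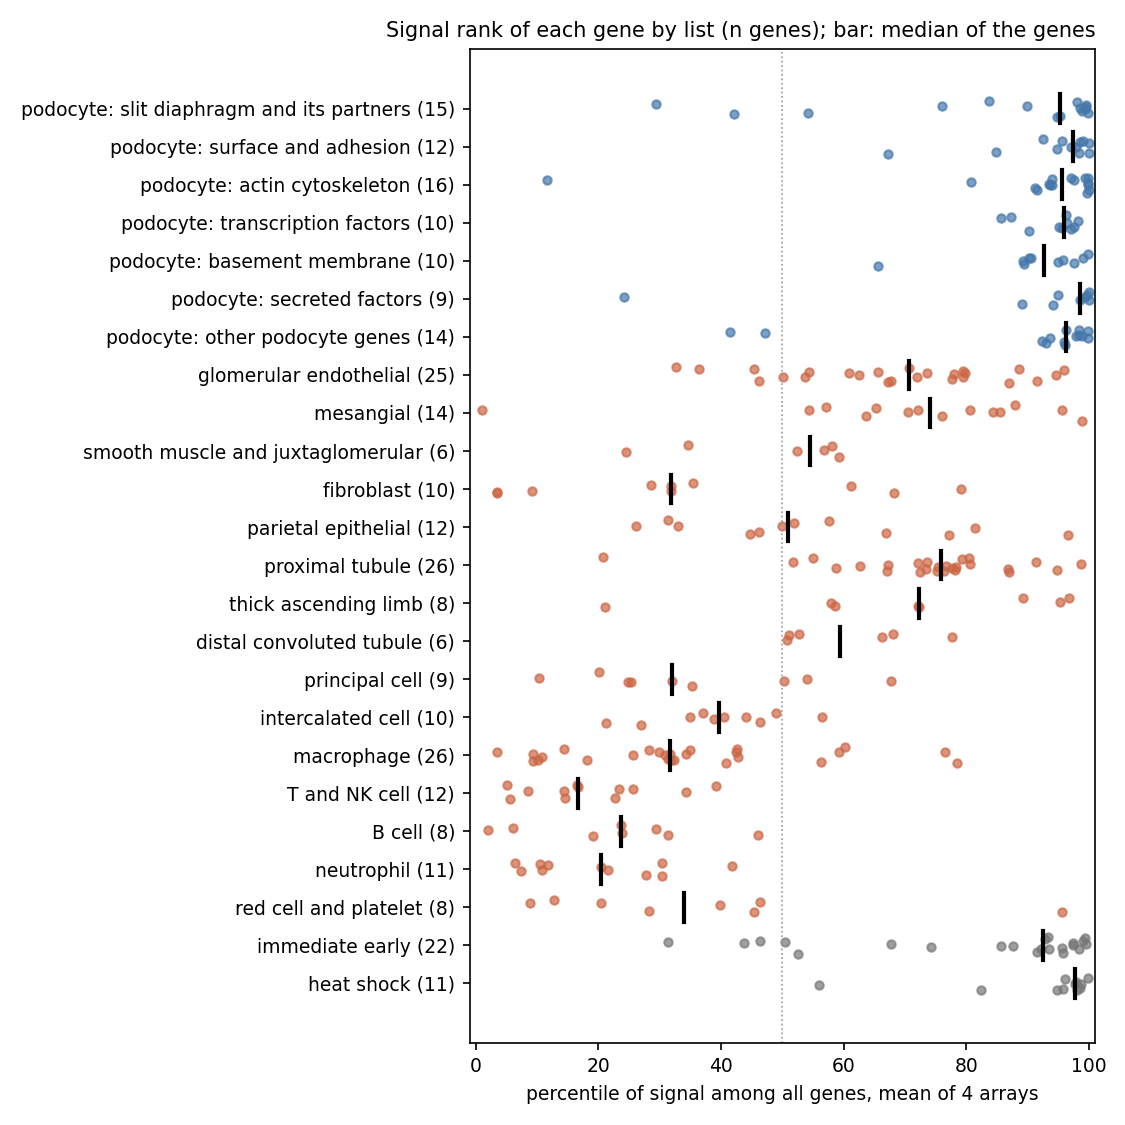
Each point is a gene, placed by its percentile of signal averaged over the 4 arrays (horizontal axis), in rows by podocyte role and cell list; the black bar is the median of the row and the dotted line the middle of all genes. Of the 86 podocyte points 10 lie under 80. The bars of all other kidney rows lie under 80, and the T and NK cell, B cell and neutrophil rows lie wholly under 50.

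Glomerular endothelial markers were above background in 23 of 25 cases, with a median percentile of 70.8 ± 5.31, and 68.6 without FVB 2. Kdr, the main VEGF receptor, read 10.30, 11.22, 10.15 and 10.95, Emcn, the sialomucin endomucin, averaged 10.33 ± 0.48, and Ptprb, the endothelial phosphatase VE-PTP, 9.76 ± 0.29. Pecam1, the endothelial adhesion molecule CD31, read 8.49, 8.96, 7.72 and 8.43. The endothelial readings were highest in FVB 2 for 19 of the 23 genes, beside 24.4% of all genes above background. Mesangial markers were above background in 13 of 14 cases, at a median percentile of 74.4 ± 5.10, and 72.1 without FVB 2. Itga8 read 11.68, 12.09, 11.07 and 11.63, Ptn, the growth factor pleiotrophin, averaged 10.59 ± 0.57, and Pdgfrb, the PDGF receptor of pericytes and mesangium, 9.27 ± 0.43. Itga8 was highest in FVB 2 and lowest in FVB 3, as were most mesangial genes. Of the 13, 12 were highest in FVB 2 and 12 lowest in FVB 3, beside 24.4% and 19.3% of all genes above background.

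The contractile and stromal lists were dimmer. Smooth muscle and juxtaglomerular markers were above background in 4 of 6 cases and high-ranked in 0, with a median percentile of 53.4 ± 4.00; Tagln (transgelin), Acta2 (smooth muscle actin) and Smtn (smoothelin) averaged 6.63, 6.53 and 6.41, and Myh11, the smooth muscle myosin, averaged 6.04 ± 0.57. Fibroblast markers were above background in 3 of 10 cases, namely Pi16 (8.33), Col1a2 (7.36) and Pdgfra (6.76), while Col1a1, the other chain of type I collagen, averaged 4.61 and was not. Parietal epithelial markers were above background in 9 of 12 cases, with a median percentile of 51.1 ± 5.49, and 48.7 without FVB 2. After Cd24a (10.82 ± 0.55) came Ncam1, a neural adhesion molecule (8.54 ± 0.35), and Akap12, a kinase anchor (8.15 ± 0.38). Cldn1, the defining claudin of Bowman's capsule, averaged 7.26 ± 0.25, and Pax8, a nephric transcription factor, read 6.43, 6.04, 4.99 and 5.81.

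Tubule markers were unequal between segments. Proximal tubule markers were above background in 23 of 26 cases, with a median percentile of 75.5 ± 2.41. Acsm2, a fatty acid ligase of the proximal tubule, read 11.68, 11.08, 11.57 and 11.97, and Slc27a2, a fatty acid transporter, averaged 10.37 ± 0.48. Slc34a1, the sodium-phosphate cotransporter, averaged 7.69 ± 0.27, and Lrp2, the endocytic receptor megalin, 8.47 ± 0.49. In the thick ascending limb, which reabsorbs salt without water, 7 of 8 markers were above background. Umod, the urinary protein uromodulin, read 10.71, 11.90, 10.06 and 11.11, and Slc12a1, the furosemide-sensitive cotransporter, read 9.73, 10.83, 8.41 and 9.37. Egf, the epidermal growth factor made in this segment, averaged 10.56 ± 0.76. All of these were highest in FVB 2 and lowest in FVB 3, and the median percentile of the list ran from 58.3 in FVB 3 to 88.7 in FVB 2, with a mean of 72.2 ± 12.8 and of 66.7 without FVB 2.

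Distal convoluted tubule markers were above background in 6 of 6 cases, with a median percentile of 60.4 ± 9.52, and 55.8 without FVB 2. Slc12a3, the thiazide-sensitive cotransporter, read 6.41, 9.03, 6.65 and 7.48, and Pvalb, the calcium-binding parvalbumin, averaged 8.27 ± 1.07. Both were highest in FVB 2. Kl, the FGF23 coreceptor klotho, averaged 7.19 ± 0.52 and Trpm6, the magnesium channel, 5.89 ± 0.25. The collecting duct gave least. Principal cell markers were above background in 3 of 9 cases, namely Aqp3 (7.32), Hsd11b2 (6.16) and Aqp2 (5.86), and intercalated cell markers in 2 of 10, namely Slc26a4 (5.73) and Aqp6 (5.51). Slc4a1, the anion exchanger AE1, was below the background level in FVB 3 (6.91, 7.07, 4.55 and 6.94), and Atp6v0d2, a proton pump subunit, averaged 5.32.

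Markers of blood cells lay mostly under the background level. Over 5 lists, 10 of 65 measured genes were above background (15.4%, beside 57.4% of all genes), and the median percentile was 25.7 ± 0.58. Macrophage markers were above background in 6 of 26 cases. Csf1r, the CSF1 receptor, read 9.24, 7.06, 8.35 and 8.62, Mrc1, the mannose receptor CD206, averaged 8.10 ± 0.59, and H2-Aa, an MHC class II chain, 6.71 ± 0.07. The leukocyte marker Ptprc (4.64, 4.96, 3.72 and 5.01) and the macrophage marker Cd68 (4.19, 4.19, 3.64 and 4.21) were not above background in all arrays. The other 3 that passed, named after their values were seen, were Laptm5, Lyz2 and Cd74.

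T and NK cell markers were above background in 0 of 12 cases and neutrophil markers in 0 of 11, with median percentiles of 17.0 and 18.6. Cd3e, a chain of the T cell receptor complex, averaged 2.89, Cd3d 3.85, Cd4 4.52 and Cd8a 4.91. S100a8 and S100a9, the calprotectin chains of neutrophils, averaged 3.41 and 5.13, and Camp and Csf3r averaged 4.23 and 4.22. Of 8 B cell markers 1 was above background, the immunoglobulin heavy chain gene Ighm (5.48), while Ms4a1 (CD20), Cd79a and Blk averaged 2.08, 4.30 and 4.15. Among red cell and platelet markers 3 of 8 were above background. Hba-a2, an alpha globin gene, was bright and level at 10.52, 10.46, 10.54 and 10.43, and the platelet genes Gp9 and Itga2b averaged 5.50 and 5.43. Hba-a1 averaged 2.74, and since the 2 alpha globin copies are nearly identical in sequence the split between them is uncertain.

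Gene families gave a further view of the cells' signal. Ribosomal protein genes had a median percentile of 96.4 ± 0.35, with 34 of 48 high-ranked, led by Rps29 (12.49), Rpl41 (12.43), Rpl13a (12.14) and Rpl38 (12.09). Nuclear-encoded subunits of the respiratory chain and ATP synthase stood at 93.4 ± 0.85, with 52 of 92 high-ranked, and included Cox5b (12.50) and Cox6c (12.40) of cytochrome oxidase. Proteasome subunits stood at 87.9 ± 0.89, led by Psma6 (11.44), Psmc1 (11.01), Psme3 (10.99) and Psmb4 (10.72). Translation factors stood at 85.9 ± 0.99, led by Eef1a1 (12.32), Eif3a (11.84), Eef1d (11.60) and Eif5a (11.44). These housekeeping families thus ranked in the same range as much of the podocyte list.

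Structural and adhesion families differed in how many members gave signal, beside 57.4% of all genes above background and 8.64% high-ranked. Of 42 collagen genes 15 were above background and 2 were high-ranked, these being Col4a3 and Col4a4. Col4a1, a chain of the collagen network that mesangial and endothelial cells make, averaged 9.89 ± 0.48. The laminins included, after the chains given above, Lamb1 at 8.73 ± 0.74. Of 29 integrins 18 were above background (62.1%) and 5 high-ranked, and Itgav (11.16) and Itgb5 (11.10), which pair as a vitronectin receptor, stood beside Itga8 and Itgb1. Claudins were above background in 8 of 20 cases, with Cldn12 (11.09) the brightest ahead of Cldn5, Cldn2 (8.79) and Cldn1. Of 61 cadherins and protocadherins 11 were above background, among them Pcdh12 (8.61), Cdh16 (8.30) and Cdh5 (7.82) after Fat1. Tubulins were above background in 11 of 19 cases (57.9%) and histone genes in 15 of 25 (60%). Tubulins were led by Tuba1a (11.79), Tuba4a (11.37), Tubb2a (11.28) and Tubb2b (10.76), and the histone genes by H1f2 (12.19), H2aj (11.01), H2aw (10.64) and H2az1 (10.45). Keratins were mostly dim, with 9 of 44 above background; Krt7 averaged 8.12, Krt10 7.83, Krt42 7.10 and Krt5 6.40.

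Signalling and transport families ranged from near the share of all genes above background to well under it. Guidance genes were led by Sema3g, the semaphorin receptor Nrp1 (11.15 ± 0.27), Sema3e (11.09 ± 0.12) and Plxnb1 (10.15 ± 0.28), with 36 of 60 above background (60%). Growth factors of the families searched were above background in 29 of 83 cases (34.9%), and Ccn1 (11.03) stood between Ccn2 and Vegfa. Developmental transcription factors were above background in 91 of 180 cases (50.6%), with Klf6 (11.62) and Foxj3 (11.12) beside Tead1 and Foxd1. Nuclear receptors were led by Nr4a1 (10.56), Nr2f2 (10.38), Rora (9.94) and Nr1d2 (9.88). Genes with solute carrier symbols were above background in 209 of 361 cases (57.9%), a count that includes the scaffold Slc9a3r2 described above. Slc6a6, the taurine transporter, read 11.94 to 12.10 (SD 0.07), followed after Slc9a3r2 by Slc44a2 (11.31) and Slc38a10 (11.31). Aquaporins had 4 of 11 genes above background, and Aqp1, the proximal tubule and vascular water channel, averaged 7.19.

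Ion channel genes were above background in 49 of 161 cases (30.4%), and the brightest belonged to the CLIC family, with Clic4 (10.07) after Clic5 and Clic3. Cacna2d2, an auxiliary subunit of voltage-gated calcium channels, averaged 9.97 ± 0.41. G protein-coupled and related receptors were above background in 63 of 178 cases (35.4%), led by F2r, the thrombin receptor (11.41 ± 0.06), Npr3, the natriuretic peptide clearance receptor (11.10 ± 0.12), Fzd2, a Wnt receptor (10.51 ± 0.18), and Ptger4, a prostaglandin E2 receptor (10.05 ± 0.10). Among matrix proteases and inhibitors Timp3 averaged 12.16 ± 0.11, Adamts1 11.32 ± 0.27, Mmp23 11.03 ± 0.34 and Timp2 11.01 ± 0.08. In the families used to set the background 6 of 133 genes were above it, a count kept small by the rule, since the level is their own 95th percentile. Defb1, a beta-defensin known from kidney epithelium, averaged 9.17 ± 0.87, and Vmn2r29, Tas1r3 and Krtap3-1 averaged 6.92, 6.45 and 5.41.

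Genes of the immediate early and heat shock lists were mostly bright. Immediate early genes had a median percentile of 92.3 ± 0.56, and the lowest mean percentile of a member was 31.4. Of the 22, 20 were above background and 12 high-ranked, beside 57.4% and 8.64% of all genes. Jun, a component of the AP-1 factor, read 12.14, 12.07, 12.26 and 11.83, Jund averaged 11.87 ± 0.07, and Klf6, a zinc finger factor, averaged 11.62 ± 0.06. Fos, the AP-1 partner of Jun, read 11.17, 10.94, 11.33 and 10.58, and Egr1, another zinc finger factor, read 10.47, 10.18, 10.86 and 9.20. Fos and Egr1 were lowest in FVB 4, and the list score was lowest there too. A range of at least 1 was seen for 3 of the 20 immediate early genes above background, Egr1, Fosb and Socs3, beside 8.51% of all such genes. Heat shock genes had a median percentile of 97.6 ± 0.32, and the lowest mean percentile of a member was 55.9. All 11 were above background and 9 were high-ranked, beside the same shares of all genes. Hspa8, the constitutive chaperone, read 12.15, 12.35, 12.35 and 12.37, and Hspa1b, the inducible form, averaged 11.44 ± 0.16. The part of the isolation in these readings was not tested, and undissociated kidney was not analysed here.

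The spread between arrays was small for most genes. Over the 10446 genes above background the median SD was 0.19 (interquartile range 0.12 to 0.29), and 0.16 without FVB 2. The median range between the highest and the lowest array was 0.42, or 1.34-fold. Among these genes the median SD was 0.23 at mean log2 signals of 5 to 7, 0.21 at 7 to 9, 0.13 at 9 to 11 and 0.09 at 11 to 14. Over all 18193 genes the dimmest had less spread than those at 5 to 7, with a median SD of 0.15 at signals of 0 to 3 and 0.19 at 3 to 5. A range of at least 1, which is 2-fold, was found for 889 genes (8.51%), and for 339 of the same genes (3.25%) without FVB 2. Leaving out FVB 1, FVB 3 or FVB 4 instead left 661, 582 or 715 such genes. A range of at least 2 was found for 83 genes, and for 6 without FVB 2. Among the 1572 high-ranked genes 16 had a range of at least 1, and without FVB 2 it was Umod alone.

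None of the 81 podocyte genes above background (0) had a range of 1 or more, and their median SD was 0.13. That count has to be read with their signal, since 62 of them were high-ranked, where 1.02% of genes had such a range, against 9.84% of the genes above background that were not high-ranked. Of the 93 other kidney markers above background 48 had a range of at least 1, and 16 without FVB 2. By cell list these were 11 of 23 endothelial, 5 of 13 mesangial, 5 of 9 parietal epithelial, 11 of 23 proximal tubule, 7 of 7 thick limb and 5 of 6 distal convoluted tubule genes, and 1 each of the smooth muscle, fibroblast, principal cell and intercalated cell genes. Without FVB 2 the counts were 2, 0, 1, 5, 5 and 1 for the first 6 of these lists, 0 for smooth muscle and fibroblast genes, and 1 each for principal and intercalated cell genes. Among blood cell markers the range was at least 1 for Csf1r, Mrc1 and Laptm5, and without FVB 2 for Laptm5 alone.

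**Figure D4:**
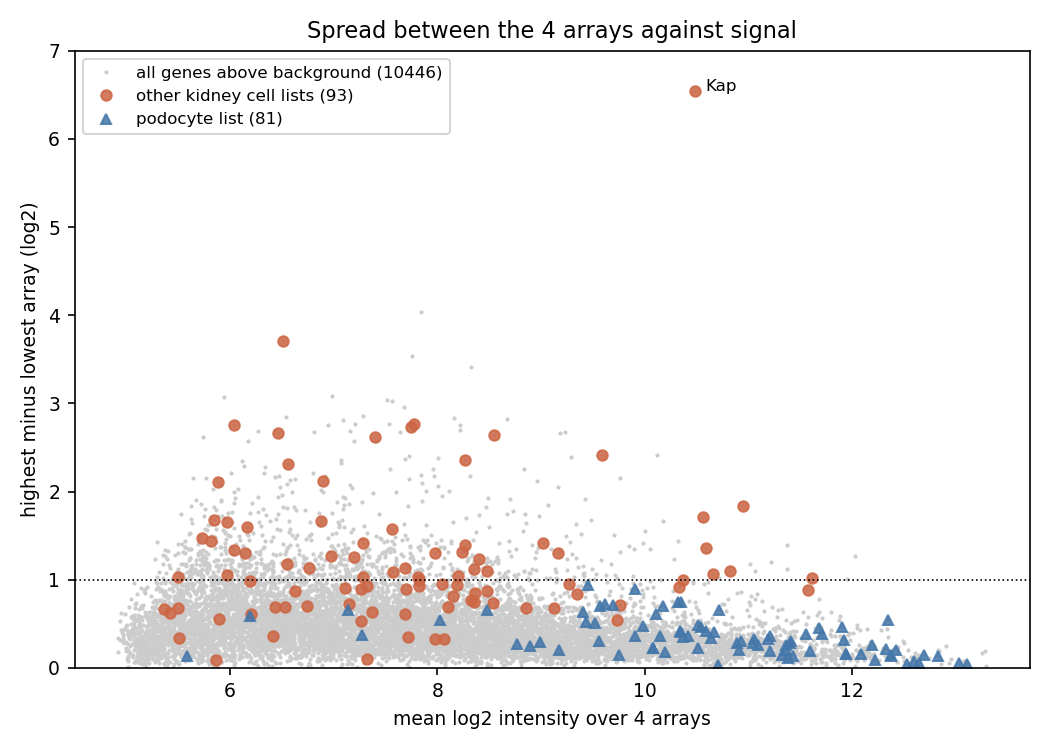
The difference between the highest and the lowest array (vertical axis, log2) is plotted against mean log2 intensity for all genes above background (grey), other kidney markers (orange circles) and podocyte genes (blue triangles); the dotted line marks a range of 1. All 81 podocyte genes lie under the line, 48 of 93 other kidney markers lie on or over it, and Kap stands alone at 6.54.

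The steadiest high-ranked genes were of general function. Rab1a, a GTPase of vesicle transport, had the same deposited reading of 11.71 in all 4 arrays, so that its SD was 0. The others were Gas5, a noncoding RNA, Cox17, a copper chaperone, Mbd2, a methyl-CpG binding protein, Hnrnpab, Pttg1ip, Ctnna1, or alpha-catenin, Brk1, an actin regulator of the WAVE complex, Rbbp4, a histone chaperone, and Igfbp7. Their SDs were 0.02 or less. Between 3.48% and 4.08% of probe sets had identical values in a pair of arrays, so an SD of 0 also reflects ties in the deposited values.

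Ranges were ordered among named genes above background in all 4 arrays, which leaves out Xist and the Y-linked genes. The 15 widest there were led by Kap, the glucuronosyltransferase Ugt2b38, the thick limb claudin Cldn16, the glutathione transferase Gsta2 and Tmem207. Next came the creatine kinase Ckmt1, the calcium-sensing receptor Casr, the glucose transporter Slc5a1, the antisense RNA Hoxb5os and the sodium channel subunit Scn4b. The last were Tmem52b, the carbonic anhydrase Car15, the myelin and lymphocyte protein Mal, Limd2 and the urea transporter Slc14a2. Of the 15, 13 were highest in FVB 2 and 11 lowest in FVB 3. Over all genes above background with a range of at least 1, the shares were 54.1% and 42.7%. The rule drops genes that fell under the level in any array, among them the proximal tubule genes Cyp2e1 and Slc7a13, low in FVB 2. These counts thus depend on that rule. Cldn16 read 6.24, 8.64, 4.93 and 6.23, a 13.1-fold range. Casr, which is known from the thick limb and parathyroid, read 6.03, 7.82, 4.74 and 5.17. Gsta2 read 7.10, 10.16, 6.63 and 7.11, and Tmem207 read 6.87, 10.29, 7.03 and 9.10. In each of these the reading of FVB 2 was the highest, and for Tmem207 FVB 4 was high as well. Without FVB 2 the range stayed at 1 or more for 12 of the 15, the exceptions being Kap, Gsta2 and Car15.

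How the arrays were ordered differed between podocyte genes and other markers. Of the 81 podocyte genes 50 had their highest reading in FVB 3, beside 31.4% of all genes above background, and 48 had their lowest in FVB 2, beside 35.8%. Both held for 32 of the 81, beside 15.9% of all genes. Of the 93 other kidney markers 65 had their highest reading in FVB 2, beside 24.4%, and 53 their lowest in FVB 3, beside 19.3%. Both held for 45 of the 93, beside 10.2%. The opposite order, highest in FVB 2 and lowest in FVB 3, was seen for 4 of the 81, Nid1, Hspg2, Cd2ap and Gas1. Genes of a list share the same 4 arrays, so these counts describe the arrays and are not independent observations.

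List scores, the mean over a list's genes above background of log2 signal centred on each gene's mean, put sizes to that order. The podocyte score was 0.04, -0.11, 0.12 and -0.04 in FVB 1 to FVB 4, a difference of 1.17-fold between the highest and the lowest array. The thick limb score was -0.14, 1.31, -1.03 and -0.14, a 5.04-fold difference, and the distal convoluted tubule score was -0.53, 1.16, -0.58 and -0.04, a 3.33-fold difference. FVB 2 was thus the high array and FVB 3 the low one for both distal segments, with FVB 1 close to FVB 3 in the second. The endothelial score was -0.21, 0.47, -0.43 and 0.17, and the mesangial score -0.12, 0.53, -0.51 and 0.10. The score of the proximal tubule list was -0.26, 0.11, -0.14 and 0.29, with FVB 4 highest and FVB 1 lowest. Within the 23 genes of this score the first place of FVB 4 rests on Kap. Without Kap, an alternative chosen after seeing the data, the score of the other 22 was -0.33, 0.32, -0.21 and 0.22. FVB 2 was then highest and FVB 1 lowest. Cyp2e1 and Slc7a13, listed for the same segment, were under the background level in FVB 2 and are therefore not in the score. The order with them was not computed. Of the 23 genes 12 were highest in FVB 2 and 11 in FVB 4, beside 24.4% and 23.3% of all genes above background. Smooth muscle genes were lowest in FVB 2 (-0.40). Of 9 other kidney lists with a score, 6 were highest in FVB 2 and 7 lowest in FVB 3.

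**Figure D5:**
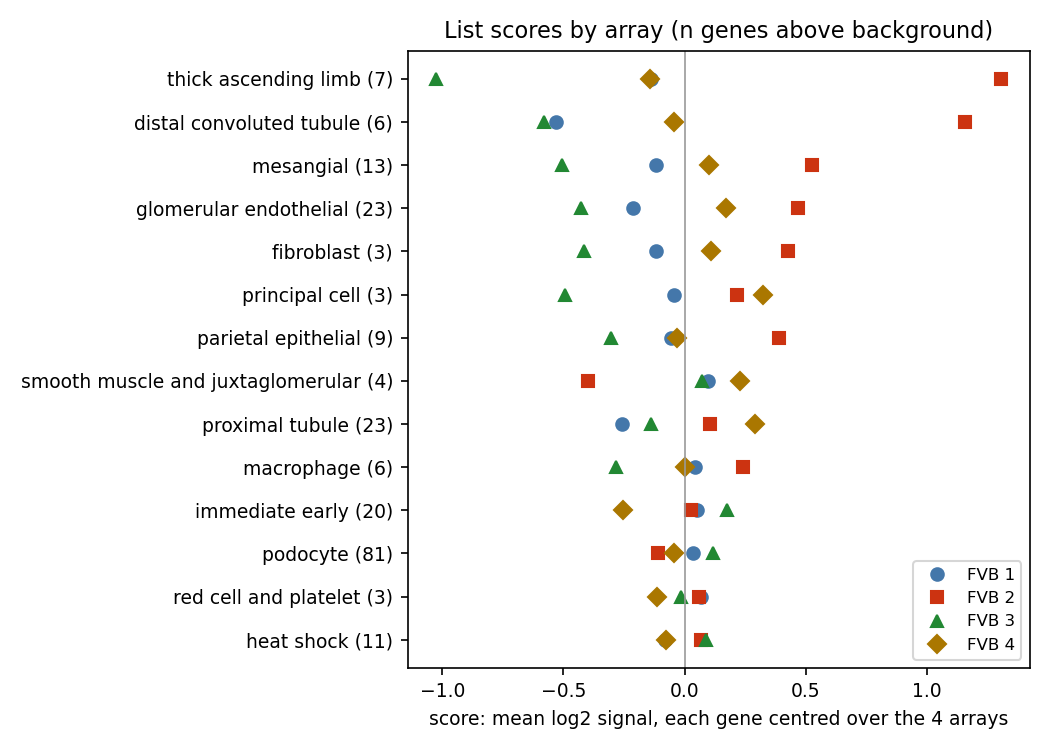
Scores (horizontal axis, mean centred log2 signal) are shown per array for each list with at least 3 genes above background, in order of the difference between arrays. The podocyte points lie between -0.11 and 0.12, while the thick limb points run from -1.03 in FVB 3 to 1.31 in FVB 2.

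The sex-linked genes set FVB 2 apart from the others. Xist read 5.36, 10.82, 3.25 and 4.15. Eif2s3y, a Y-linked translation factor gene, read 9.08, 2.33, 8.97 and 9.18, Kdm5d, a Y-linked histone demethylase gene, read 9.01, 1.89, 8.76 and 8.70, and Uty, a further Y-linked gene, read 7.20, 2.40, 6.78 and 7.05. Xist was thus high in FVB 2, and the Y-linked genes were under the background level there and well over it in the other arrays. Kap, the kidney androgen-regulated protein of the proximal tubule, read 11.89, 5.82, 11.87 and 12.36. Its range was 6.54, or 93.1-fold, with FVB 2 the low array, and 0.49 without FVB 2. Cyp2e1, a cytochrome P450 (9.51, 4.41, 9.99 and 10.99), and Slc7a13, an amino acid transporter (7.002, 2.956, 7.161 and 7.963), are proximal tubule markers that were also low in FVB 2 alone; they were chosen for mention after their values were seen. Most of their list did not share this. Of the 23 proximal tubule genes above background 12 were highest in FVB 2 and 5 lowest there, beside 24.4% and 35.8% of all genes. In FVB 2 Kap, Cyp2e1 and Slc7a13 lay opposite to the thick limb and endothelial markers. With 1 such array sex and other differences of that mouse or sort cannot be told apart.

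Promoter windows of a pair of tubule genes are shown because both were among the brightest genes of their lists and FVB 2 was the highest array for Umod and the lowest for Kap. The Umod window is chr7:119479213-119479512 on the minus strand and the Kap window is chr6:133853618-133853917 on the minus strand (RefSeq, GRCm38.p6), printed in the direction of transcription with the same motifs in capitals.
Umod: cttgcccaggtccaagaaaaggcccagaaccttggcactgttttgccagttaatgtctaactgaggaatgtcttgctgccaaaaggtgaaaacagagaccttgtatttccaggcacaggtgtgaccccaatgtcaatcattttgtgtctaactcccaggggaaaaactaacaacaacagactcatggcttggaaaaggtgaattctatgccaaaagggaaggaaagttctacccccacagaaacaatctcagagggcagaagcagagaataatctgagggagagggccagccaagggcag
Kap: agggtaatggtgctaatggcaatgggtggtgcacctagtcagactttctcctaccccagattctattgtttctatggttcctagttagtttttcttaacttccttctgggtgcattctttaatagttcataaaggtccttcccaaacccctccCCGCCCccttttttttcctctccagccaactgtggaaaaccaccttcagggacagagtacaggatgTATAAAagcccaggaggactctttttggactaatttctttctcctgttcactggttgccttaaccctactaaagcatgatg
The Umod window held 0 CG dinucleotides and neither motif, and the Kap window held 1 CG dinucleotide, TATAAA with its first base at position -31 from the start, and CCGCCC. Over the other kidney lists, with entries for 87 of 126 genes, the median was 6 CG dinucleotides a window, and over the proximal tubule list (23 of 26 genes) it was 4. TATAAA occurred in 18.4% of the other kidney windows and 26.1% of the proximal tubule windows, against 5.88% of podocyte and 9.86% of all windows. GGGCGG occurred in 43.7% of the other kidney and 43.5% of the proximal tubule windows, against 66.2% of podocyte and 54.1% of all windows. For blood cell markers (51 of 65 genes) the median was 3 CG dinucleotides, TATAAA occurred in 17.6% and GGGCGG in 19.6%. The podocyte windows were thus nearer in CG content to those of all genes than were the windows of the other lists, as a description of these lists.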

How the data were processed

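Signal was measured on expression arrays of amplified RNA from sorted podocytes. Each deposited value is the linear intensity of a probe set, made by the authors with RMA and Partek per the submitters' processing notes, whose versions are not stated there. RMA shares a distribution between arrays, so differences in overall signal between mice cannot be read. Log2 was taken here, in Python 3.11.15 with pandas 2.3.3, NumPy 2.4.6 and matplotlib 3.10.9. Of 45101 probe sets, 64 controls were left out, 34945 had 1 symbol in the platform annotation, 932 had several and 9160 had none. Of the first, 34741 gene identifiers matched the GRCm38.p6 gene table and 0 symbols differed. The brightest probe set over the 4 arrays stood for each of 18193 genes, of which 9010 had more than 1. For 69 of the 86 podocyte genes every probe set was above background. The functions were checked on simulated data. The genes and lists were chosen with earlier results of these data known. Named were the 4 defining genes, the podocyte list, the 25 brightest, 15 widest and 10 steadiest genes, 3 brightest and 2 defining genes a list, up to 4 a family and the sex-linked genes. Genes of the immediate early and heat shock lists, and a few others where this is said, were chosen after their values were seen. Other probe set rules, quantile normalization, other background levels and ranks, and leaving out each array were tried. Among the probe set rules was the brightest over all 9 arrays of the series, OVE26 included. Kap was left out of the proximal tubule score as an alternative added after seeing the data.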

Additional observations from a re-analysis of the deposited data

Results flagged for a closer look

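For the 267 genes named, the 14 list scores and 22 list medians, it was asked whether 1 array stood so far from the other 3 that its gap to the nearest as a share of the whole range passed Dixon's 95% limit for 4 samples. This was so for 23 genes and 1 list median. Chance gives such a gap in about 1 of 20 groups, and over all genes above background it was found for 7.01%. FVB 2 was the array that stood apart for 14 of the 23 genes, FVB 3 for 6, FVB 1 for 2 and FVB 4 for 1.

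In FVB 2 the gap was 0.969 of the range for Eif2s3y, 0.957 for Kdm5d and 0.911 for Uty, the Y-linked genes, which were low there. The median percentile of the sex-linked list had a gap of 0.935. Kap was low (0.925), as were Acta2 (0.905) and Tpm1 (0.893). Readings of FVB 2 were high for Gsta2 (0.863), Col1a2 (0.941), Gp9 (0.857), Slc9a3r2 (0.875), Slc38a10 (0.870), Vcl (0.904), Vdac1 (0.948) and Hnrnpab, where the other arrays were tied (1).

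In FVB 3 the reading was high for Fzd2 (0.968), Htra1 (0.880) and Pdpn (0.896), and low for Slc4a1 (0.935), Cd68 (0.974) and Rpl13a (0.844). FVB 1 was high for Aqp2, where the other arrays were tied (1), and low for Hspa8 (0.905). FVB 4 was high for Slc27a2 (0.874). The whole range was below 0.4 on the log2 scale for most of the genes flagged outside the Y-linked genes, Kap and Gsta2.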

How the results depend on the processing

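No paired analysis was possible because there is 1 group of mice and no comparison of groups. Of 194 alternative values of the main results 171 stayed within the spread between arrays or within 1.5 times the main count, 23 moved and 0 reversed. Of 164 alternative values of single list medians and defining genes 133 stayed and 31 moved. Some values in both totals had little room to move. Quantile normalization keeps the ranks within an array, and a score difference between FVB 2 and FVB 3 hardly depends on FVB 1 or FVB 4. Ranks among genes above background only, which leave out every other gene, lowered the median of most lists. It went from 60.4 to 31.3 for distal convoluted tubule, from 53.4 to 25.5 for smooth muscle and from 51.1 to 23.3 for parietal epithelial genes. For intercalated cell genes it went from 39.5 to 10.3, and for B cell genes from 23.3 to 7.43. The median of red cell and platelet genes was also lower by over 1.5 times. Thick limb, endothelial and proximal tubule medians fell less, to 52.3, 52.4 and 58.3. The fibroblast median rose from 31.7 to 44.7. The median percentile of the podocyte list was 96.6 with probe sets averaged per gene, 96.9 with probe sets without a suffix letter and 93.7 with ranks among genes above background only; for blood cell lists it was 27.3, 26.5 and 23.9, and for the other kidney lists 49.7 under the last. With the background at the 99th percentile of the other-organ families, 6190 genes were above it, 50 of the other kidney lists and 3 of the blood lists, and a range of at least 1 was found for 278 and, among other kidney markers, 22. With a percentile of 95 in place of 90, 788 genes were high-ranked, 2 of them other kidney markers. The mean of probe sets gave 544 genes with a range of at least 1, 2 of them podocyte genes (Nid1 at 1.01 and Sulf1 at 1.60), and quantile normalization gave 1, Nid1. The proximal tubule score of FVB 2 exceeded that of FVB 3 by 0.25, by 0.37 with the mean of probe sets and by 0.43 without suffixed ones, and by 0.53 without Kap, an alternative chosen after seeing the data. The causes were not tested. Leaving out each array in turn, with the background set anew over the other 3, gave 356 to 738 genes with a range of at least 1, 18 to 43 other kidney markers, 1 to 4 blood markers and 0 podocyte genes. The lowest counts for all genes, other kidney markers and blood markers came without FVB 2. Leaving out an array cannot widen a range, so the podocyte count of 0 had little room to move. The podocyte counts above background (81) and high-ranked (62) were not moved past 1.5 times by any alternative tried. Signals near the background level give only bounds.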
